A study of Rattus norvegicus with 4 samples.

Results

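The matrix metalloproteinases (MMPs), the ADAM and ADAMTS proteases and their inhibitors were followed in rat olfactory ensheathing cells sorted by their level of p75. Members were all array probes that are not controls and whose gene name was Mmp, Adam, Adamts or Timp followed by a number, or Reck. The rule reads gene names and was set with earlier results of these data known. This gave 62 genes read by 71 probes, out of 41012 probes on the array. They were 26 probes of 23 MMP genes, 23 probes of 19 ADAM genes, 17 probes of 16 ADAMTS genes and 5 probes for Timp1, Timp2, Timp3 and Reck.

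Olfactory ensheathing cells are glia that enclose bundles of olfactory axons, and p75 is the low-affinity neurotrophin receptor encoded by Ngfr. Cultures from male Fischer rats were sorted by flow cytometry into a p75High and a p75Low population, each 98% pure by the submitters' own check. Each of 4 two-colour Agilent arrays held 1 biological replicate, with p75High cDNA in Cy5 and p75Low cDNA of the same replicate in Cy3, both amplified by a global PCR before labelling. The dyes were not exchanged on any array, so a dye effect and the population cannot be told apart. No age of the rats is given, and the labels do not say whether replicates were separate animals or cultures, so the spread behind every p-value is that of these 4 arrays and may hold technical variation alone.

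MMPs are secreted or membrane-bound zinc proteases that cut collagens and other matrix proteins. ADAMs are transmembrane relatives, of which ADAM10 and ADAM17 release growth factors, cytokines and adhesion molecules from the cell surface, and ADAMTS enzymes are secreted relatives that include the aggrecanases and the procollagen N-proteinases. TIMPs are secreted proteins that block the active site of these enzymes, and Reck is an inhibitor anchored in the cell membrane. In the nervous system these enzymes are studied for their part in cell migration, in the turnover of matrix that axons grow through and in the shedding of signalling molecules by glia and macrophages.

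A value on an array is given as the log2 ratio of p75High over p75Low, after background correction and loess normalization within the array. A ratio of 1 is a doubling in p75High and a ratio of -1 a halving. Levels in 1 population are normalized log2 intensities, which can be compared between populations for the same probe and not between probes. Where a gene has more than 1 probe, they are told apart by the start position in the array file, read here as the position in the transcript, which the file does not explain. Adjusted p-values come from limma over all 24872 probes that could be tested, with the Benjamini-Hochberg method and a threshold of 0.05. Probes entered the comparison if at least 3 of the 4 arrays read them well above local background in 1 and the same population; these are called kept.

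The sort was visible in Ngfr, whose ratio was 6.07, 6.17, 5.02 and 5.96 on replicates 1 to 4. Its mean was 5.80 ± 0.53 (SD, n = 4), a 55.9-fold difference (adjusted p = 0.0262). The ratios of all kept probes were only weakly alike between arrays, with correlations across probes of 0.17 to 0.25. The p75High channel read 22464 to 28062 probes well above background on an array, and the p75Low channel 23044 to 26174. Among marker lists, the 21 kept probes of microglia and macrophages had a median ratio of -4.34, and 11 of them were lower in p75High past the threshold. The 15 kept probes of ensheathing and Schwann lineage glia had a median of 0.77, with 1 higher, Ngfr, whose protein the cells were sorted on. At an unadjusted limma p of 0.05, 3 were higher, Ngfr, Sox10 (mean 4.56) and S100b (mean 3.75), and 0 were lower. On all 4 arrays, 4 were positive and 2 negative, the latter Gap43 (mean -1.02) and Sox2 (mean -0.37). The 16 kept fibroblast probes had a median of 0.92 and 1 higher, Col1a1, and went both ways, with 7 higher and 2 lower at an unadjusted limma p of 0.05. The lower ones were a probe of Col1a2 (mean -2.71) and Thy1 (mean -0.99), each negative on all 4 arrays. Thy1 was kept through p75Low alone, which favours a lower p75High signal. The 17 kept probes of housekeeping genes had a median of -0.87, with array medians from -0.89 to -0.62. None of them passed in limma's adjusted test, and 7 were negative on all 4 arrays. At an unadjusted limma p of 0.05, 5 were lower, all of Actb or B2m, and 0 higher. The means ran from -3.35 for a probe of B2m to 1.49 for Rpl13a. Of the 10 kept probes of smooth muscle and pericytes, 10 of endothelium and 8 of neurons, none passed in limma's adjusted test. Of the endothelial ones 9 were tested, since the probe of Kdr had a ratio on replicate 3 alone (1.88). At an unadjusted limma p of 0.05, smooth muscle and pericytes had 3 higher and 1 lower, endothelium 2 higher and 0 lower, and neurons 0 higher and 1 lower. Of all tested probes, 5.75% were higher and 6.78% lower at that level. On all 4 arrays, 12.4% of all tested probes were positive and 12.9% negative.

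Of the 71 member probes, 46 probes of 40 genes were kept, and 22 genes had no kept probe. The kept share was 64.8%, against 60.8% of all probes. Of the 46, 39 passed the filter in both populations, 3 in p75High alone (Adam17, Adamts12 and Adamts5) and 4 in p75Low alone (Adam28, a probe of Adam9, Adamts19 and Mmp9). In the fit, 0 member probes were higher in p75High and 1 was lower, that of Timp2, and the other 45 did not pass. Among all tested probes, 0.655% passed in either direction, 0.261% as higher and 0.394% as lower, so the count of 1 among 46 probes rests on Timp2 alone. At an unadjusted p of 0.05, limma took 3 member probes as higher, those of Mmp14, Adamts4 and 1 of Mmp19, and 2 as lower, those of Timp2 and 1 of Adam9. The share of all probes at that level was 5.75% higher and 6.78% lower. The median of the members' mean ratios was 0.06, against -0.03 over all kept probes. By family the median was 0.66 for the 5 probes of TIMPs and Reck, 0.18 for 17 MMP probes, -0.40 for 14 ADAM probes and 0.09 for 10 ADAMTS probes. The ADAM median turned to 0.05 without replicate 4.

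**Figure D1:**
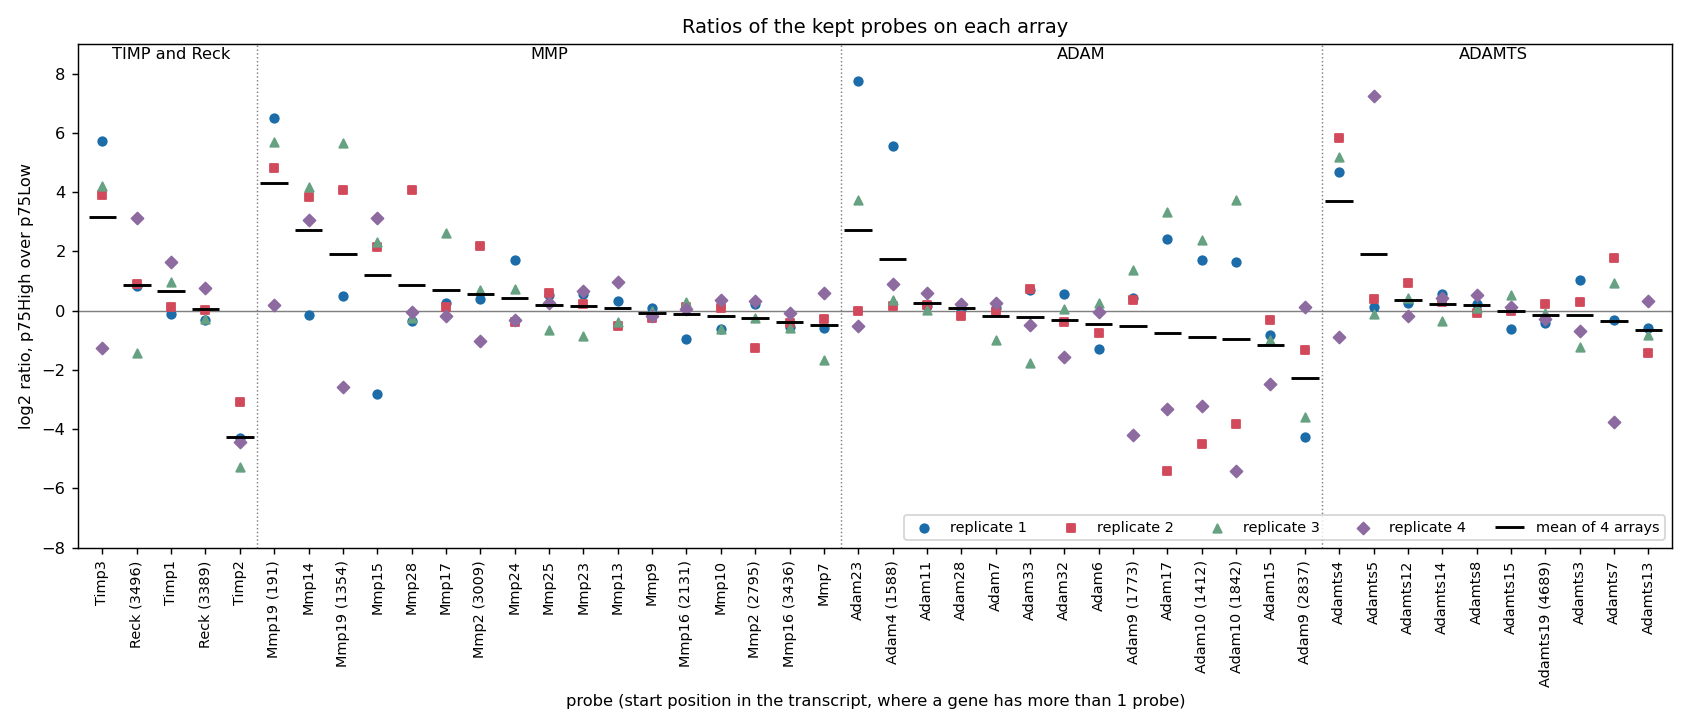
Log2 ratio of p75High over p75Low (y axis) for each of the 46 kept member probes (x axis), grouped by family and ordered by mean. Each symbol is 1 of 4 arrays and each bar the mean of the 4. The 4 points of Timp2 lie between -5.27 and -3.08, and those of Adam10 and Adam17 lie on both sides of 0.

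Timp2 was the inhibitor gene that fell in p75High. TIMP2 blocks most MMPs, and together with MMP14 it forms the complex on the cell surface that activates pro-MMP2. Its single probe lies on chr10:108311244-108311303 of rn4, on the minus strand, by the array file. The last 30 bases of the probe are shown because they belong to the only passing member, and the capitals mark a match to AATAAA, the letters of the common polyadenylation signal.
Timp2, last 30 bases of the probe: cccttcctggaaacagcatgAATAAAacat
The letters AATAAA, searched on the probe strand, stood in 3 of the 71 member probes, those of Timp2, Adam15 and Mmp7, and in 4.27% of all probes. A match does not show a transcript end.

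The normalized log2 intensity of Timp2 was 8.87, 11.54, 7.94 and 8.83 in p75High cells of replicates 1 to 4, and 13.17, 14.63, 13.21 and 13.28 in p75Low cells. Every p75High value lay below every p75Low value, and replicate 2 was the brightest in both populations. Of the 46 kept probes this was the only one whose populations did not overlap, while 3.77% of all tested probes did so in that direction and 3.91% in the other. The log2 ratio was -4.30, -3.08, -5.27 and -4.45, with a mean of -4.28 ± 0.90 (SD, n = 4; SE 0.45), a 19.4-fold lower signal in p75High (adjusted p = 0.0489). In bulk samples such as these, fewer cells of a type and less RNA per cell cannot be told apart.

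The call of Timp2 sat at the edge of the threshold. The call was lost when dim probes were left in (limma adjusted p = 0.0927), after median centring in place of loess (0.0951), with the scanner's own ratios (0.0599), with the channels as unpaired samples (0.0502) or when any 1 of the 4 replicates was dropped (0.144 to 0.207), while the mean log2 ratio stayed between -4.67 and -3.95. Markers of microglia and macrophages moved the same way on the same arrays. Their 21 kept probes had median log2 ratios of -4.59, -5.30, -5.02 and -4.48 on replicates 1 to 4. Of these 21, 16 were negative on all 4 arrays, against 12.9% of all tested probes. The mean normalized log2 intensity of the 21 was 8.26 to 9.11 in p75High and 12.35 to 12.74 in p75Low. No probe of the list was below background throughout in either population. The housekeeping probes had a median of -0.87, with none past the adjusted threshold in limma. At an unadjusted limma p of 0.05, 5 of them were lower, all of Actb or B2m. The part of either list in the Timp2 difference was not tested.

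Timp3 and Timp1 did not pass, and both had positive mean ratios. TIMP3 binds to the matrix and also blocks ADAM17, ADAMTS4 and ADAMTS5, and TIMP1 is a soluble inhibitor that acts poorly on membrane-type MMPs. Their probes are shown to let the 3 inhibitors be told apart by what the array read, at chr7:19679721-19679780 for Timp3 and within chrX:12542700-12543703 for Timp1, both on the minus strand of rn4.
Timp3: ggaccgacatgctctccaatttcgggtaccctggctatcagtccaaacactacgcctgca
Timp1: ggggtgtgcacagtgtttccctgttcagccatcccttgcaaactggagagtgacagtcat
The Timp1 positions span more bases than the probe holds, so the array file places that probe across a gap in the genome.

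The normalized log2 intensity of Timp3 was 12.55, 13.32, 11.57 and 7.86 in p75High, against 6.81, 9.42, 7.35 and 9.11 in p75Low. On replicates 1 to 3 the p75High value was far above its partner, and on replicate 4 it was the lower of the pair. The log2 ratio of 5.74, 3.90, 4.21 and -1.25 had a mean of 3.15 ± 3.04 (SD, n = 4) and did not pass (limma adjusted p = 0.41).

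For Timp1 the normalized log2 intensity was 10.46, 8.43, 11.71 and 12.41 in p75High, against 10.56, 8.29, 10.75 and 10.75 in p75Low. The populations overlapped, and on replicate 2 both were dimmer than on any other array. The mean log2 ratio was 0.66 ± 0.80 (SD, n = 4; limma adjusted p = 0.548). Reck was read by 2 neighbouring probes on chromosome 5. The one at transcript position 3389 had log2 ratios of -0.32, 0.01, -0.29 and 0.76 (mean 0.04, limma adjusted p = 0.964). The other, at position 3496, had 0.81, 0.90, -1.44 and 3.12 (mean 0.85 ± 1.86, SD, n = 4; limma adjusted p = 0.669). The 2 readings of Reck had the same sign on 3 of 4 arrays and differed by up to 2.35.

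**Figure D2:**
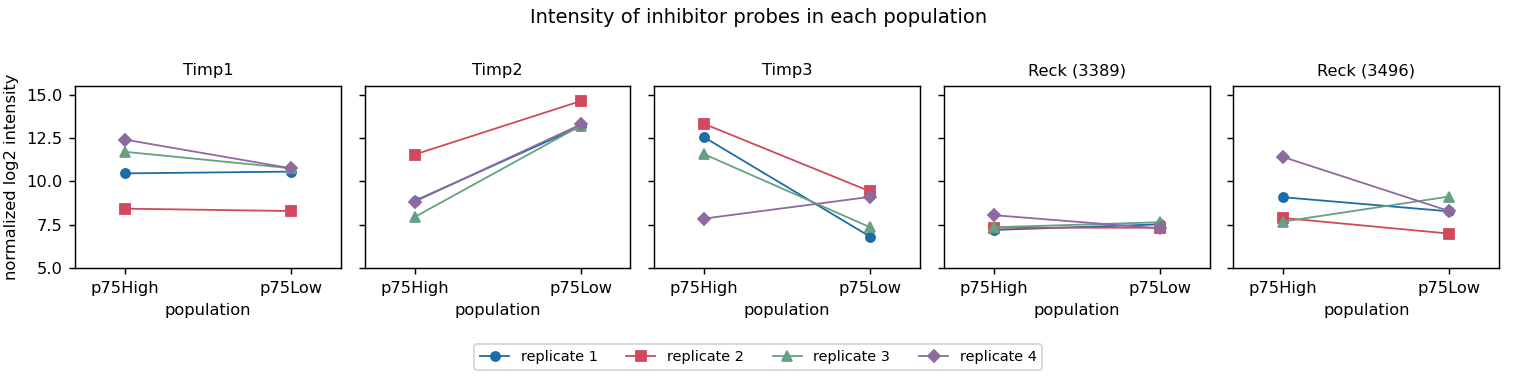
Normalized log2 intensity (y axis) in p75High and p75Low (x axis) for the probes of Timp1, Timp2, Timp3 and Reck, the transcript position of each Reck probe in brackets. A line joins the populations of 1 replicate. All 4 lines of Timp2 climb toward p75Low, while 3 of 4 lines of Timp3 descend.

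Mmp14 and Mmp15, which encode membrane-type MMPs, had positive ratios on replicates 2 to 4 and negative ones on replicate 1. MMP14, a transmembrane collagenase that also activates pro-MMP2, had a normalized log2 intensity of 8.40, 11.43, 11.48 and 10.20 in p75High, against 8.57, 7.60, 7.31 and 7.14 in p75Low. Replicates 2 to 4 were higher in p75High, and in replicate 1 the populations were almost equal. The log2 ratio of Mmp14 was -0.16, 3.83, 4.17 and 3.06, with a mean of 2.72 ± 1.98 (SD, n = 4), and did not pass (limma adjusted p = 0.336). Its probe lies on chr15:32503012-32503071 of rn4, on the plus strand.

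Mmp15, a close transmembrane relative, had a normalized log2 intensity of 9.30, 13.25, 11.12 and 12.59 in p75High, against 12.11, 11.10, 8.80 and 9.48 in p75Low. Replicate 1 again stood apart, here with the lower value in p75High. The log2 ratio of Mmp15 was -2.82, 2.15, 2.32 and 3.11, with a mean of 1.19 ± 2.71 (SD, n = 4; limma adjusted p = 0.67).

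Of the other membrane-type enzymes, none passed in limma's adjusted test, and at an unadjusted p of 0.05 none did either. The 2 probes of Mmp16 had mean log2 ratios of -0.40 and -0.12, the first negative on all 4 arrays at -0.54, -0.40, -0.57 and -0.07. Mmp24 averaged 0.44 ± 1.00, with 1.72 on replicate 1. For the 2 enzymes held by a lipid anchor, Mmp17 averaged 0.71, with 2.61 on replicate 3 and at most 0.26 elsewhere, and Mmp25 averaged 0.18 ± 0.58 (SD, n = 4 each). Mmp23, an MMP anchored by its amino end, averaged 0.14 ± 0.69.

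Mmp19, a secreted MMP, had the highest mean ratio of all members and a pair of probes that differed. Both lie on the plus strand of chromosome 7 in rn4, the first at chr7:2095038-2095097 and the second at chr7:2098675-2098734. They are shown because a reading of the gene depends on which is used.
Mmp19, probe from transcript position 191: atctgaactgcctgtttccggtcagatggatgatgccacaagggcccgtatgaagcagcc
Mmp19, probe from transcript position 1354: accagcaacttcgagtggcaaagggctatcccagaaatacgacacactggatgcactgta

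By the probe at position 191, Mmp19 had a normalized log2 intensity of 13.61, 12.93, 14.08 and 7.61 in p75High, against 7.10, 8.12, 8.39 and 7.43 in p75Low. The first 3 replicates were far brighter in p75High, and replicate 4 was dim in both populations. The log2 ratio was 6.52, 4.81, 5.69 and 0.18, positive on all 4 arrays, with a mean of 4.30 ± 2.83 (SD, n = 4) that did not pass (limma adjusted p = 0.311). By the probe at position 1354, the normalized log2 intensity was 10.98, 11.05, 14.14 and 7.37 in p75High, against 10.48, 6.96, 8.47 and 9.96 in p75Low. Here the log2 ratio was 0.50, 4.09, 5.66 and -2.59, with a mean of 1.91 ± 3.70 (SD, n = 4; limma adjusted p = 0.619). The probes stood close on replicates 2 and 3 and 6.02 apart on replicate 1.

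The gelatinases, which cut denatured collagen and basement membrane, were not set apart by the sort at this precision. Mmp2 was read by 2 probes, with log2 ratios of 0.39, 2.18, 0.69 and -1.01 at position 3009 and of 0.22, -1.27, -0.26 and 0.31 at position 2795. The means were 0.56 ± 1.31 and -0.25 ± 0.72 (SD, n = 4; limma adjusted p = 0.699 and 0.8), and the probes had the same sign on 1 of 4 arrays. Mmp9 had a mean log2 ratio of -0.09 ± 0.15 (SD, n = 4), with levels between 6.23 and 6.66 in all 8 readings, and it was well above background on 2 arrays in p75High and on 3 in p75Low.

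Collagenases, stromelysins and matrilysins gave small values. Mmp13, a collagenase of cartilage and bone, averaged 0.09 ± 0.69 (SD, n = 4) on the log2 ratio scale. Mmp10, a stromelysin, averaged -0.20 ± 0.49, and Mmp7, matrilysin, averaged -0.49 ± 0.93. Mmp28, epilysin, had a log2 ratio of 4.06 on replicate 2 and lay between -0.34 and -0.04 on the other arrays.

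The sheddases ADAM10 and ADAM17 changed sides between replicates together. ADAM10 is the main sheddase of Notch and of cadherins, and ADAM17 releases TNF and ligands of the EGF receptor. Adam10 was read by 2 probes on the minus strand of chromosome 8 in rn4, at chr8:75204628-75204687 and chr8:75202785-75202844, which are shown because 2 separate stretches gave the same signs on all 4 arrays.
Adam10, probe from transcript position 1412: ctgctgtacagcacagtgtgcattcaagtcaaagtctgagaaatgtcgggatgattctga
Adam10, probe from transcript position 1842: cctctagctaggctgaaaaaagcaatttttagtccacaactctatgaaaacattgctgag

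At position 1412, the normalized log2 intensity of Adam10 was 9.17, 5.91, 8.26 and 8.15 in p75High, against 7.45, 10.43, 5.88 and 11.35 in p75Low. At position 1842 it was 8.51, 5.70, 9.93 and 7.23 in p75High, against 6.87, 9.52, 6.20 and 12.65 in p75Low. By both probes p75High was the brighter population on replicates 1 and 3 and the dimmer one on replicates 2 and 4. The dimmer population was not well above background on replicates 2 (p75High) and 3 (p75Low) by either probe, so the size of those ratios is uncertain. The log2 ratios at position 1412 were 1.72, -4.52, 2.39 and -3.20, with a mean of -0.90 ± 3.47 (SD, n = 4; limma adjusted p = 0.799). Those at position 1842 were 1.64, -3.83, 3.72 and -5.42, with a mean of -0.97 ± 4.35 (SD, n = 4; limma adjusted p = 0.828).

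Adam17, on chr6:41883292-41883351 of rn4 on the minus strand, had a normalized log2 intensity of 8.63, 6.43, 9.66 and 6.91 in p75High, against 6.21, 11.83, 6.34 and 10.22 in p75Low. Its log2 ratio of 2.43, -5.40, 3.32 and -3.31 had the sign of Adam10 on each array, with the dimmer population not well above background on replicates 1, 3 and 4, where the size is uncertain. Its mean was -0.74 ± 4.27 (SD, n = 4; limma adjusted p = 0.87). With such readings included, ratios of at least 2 in size in both directions were found for 5 of the 46 kept members, these 3 probes with Mmp15 and the Mmp19 probe at position 1354, and for 11.1% of all kept probes. No array of the sheddases lay near the mean over the 4.

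**Figure D3:**
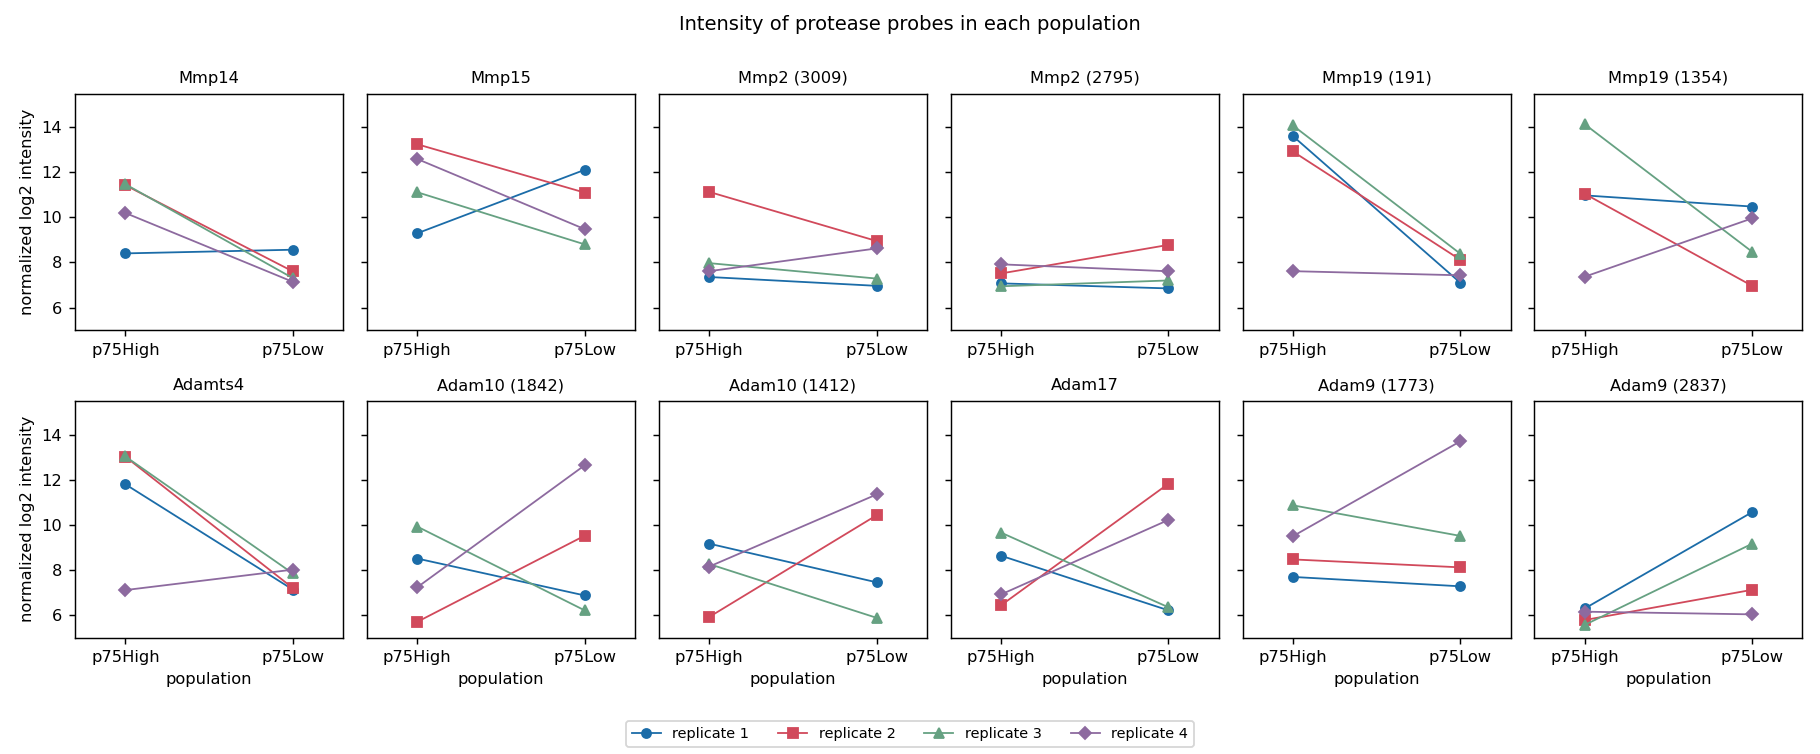
Normalized log2 intensity (y axis) in p75High and p75Low (x axis) for 12 probes of MMP, ADAMTS and ADAM genes, with the transcript position in brackets where a gene has more than 1 probe. A line joins the populations of 1 replicate. For Adam10 and Adam17 the lines of replicates 1 and 3 descend toward p75Low and those of replicates 2 and 4 climb, while Mmp14 and Adamts4 each have 1 flat or climbing line.

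Adam15 and Adam9, 2 further catalytic ADAMs, had negative mean ratios, and their populations overlapped. Adam15, a membrane protease that also binds integrins, had a normalized log2 intensity of 9.78, 10.06, 9.69 and 11.35 in p75High, against 10.60, 10.38, 10.70 and 13.82 in p75Low. Its log2 ratio was negative on all 4 arrays and lay between -2.47 on replicate 4 and -0.33 on replicate 2, with a mean of -1.16 ± 0.92 (SD, n = 4; limma adjusted p = 0.407). Adam15, Timp2 and 1 Mmp16 probe were the 3 members negative on all 4 arrays, and 3 were positive on all 4, while 12.9% and 12.4% of all probes were so.

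Adam9, a widely expressed sheddase, had 2 probes of that name on chromosome 16 that differed in sign on all 4 arrays. At transcript position 1773 the log2 ratio was 0.42, 0.35, 1.36 and -4.22 (mean -0.52 ± 2.50, SD, n = 4; limma adjusted p = 0.844). At position 2837 it was -4.28, -1.34, -3.60 and 0.12 (mean -2.28 ± 2.03, SD, n = 4; limma adjusted p = 0.396). The second probe was not well above background in p75High on any array, at 5.56 to 6.29. In p75Low it was above on replicates 1 to 3, at 7.12 to 10.57. On replicate 4, at 6.03 in p75Low, neither population was above background. This probe passed the filter through p75Low alone, which favours a lower p75High signal. Each p75High level below the dimmest signal well above background on its array was raised to that signal. The mean signal was then 4.64-fold lower in p75High, 2.88-fold without replicate 1 and 8.15-fold without replicate 4. The 4.64- and 2.88-fold figures take in replicate 4, so they are estimates and set no lower limit. In rn4 the file places the first at chr16:71499218-71499277 and the second at chr16:71525851-71525910, both on the plus strand, and whether the second reads an Adam9 transcript was not tested.

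Adam23, a neuronal binding partner of LGI proteins, is an ADAM without protease activity. Its normalized log2 intensity was 14.83, 6.97, 11.06 and 7.19 in p75High, against 7.08, 6.99, 7.33 and 7.73 in p75Low. Replicates 1 and 3 were bright in p75High, and replicates 2 and 4 were at the level of p75Low. The log2 ratio of 7.75, -0.02, 3.73 and -0.53 had a mean of 2.73 ± 3.85 (SD, n = 4; limma adjusted p = 0.524). Adam11, a brain relative of the same kind, averaged 0.24 ± 0.25 and was positive on all 4 arrays. Adam4, of the ADAMs known from testis, had 5.56 on replicate 1 and 0.17 to 0.89 on the others by its kept probe. Adam28, an ADAM of lymphocytes, averaged 0.08 ± 0.19, and Adam7, of the epididymis, averaged -0.18 ± 0.56. The remaining kept ADAM probes, those of Adam32, Adam33 and Adam6, had means between -0.46 and -0.21.

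Adamts4 gave the highest mean ratio of the ADAMTS family. ADAMTS4, an aggrecanase that also cuts brevican and versican, is made by glia in the central nervous system. The normalized log2 intensity of Adamts4 was 11.80, 13.03, 13.04 and 7.11 in p75High, against 7.13, 7.20, 7.84 and 8.01 in p75Low. Replicates 1 to 3 were far brighter in p75High, and replicate 4 was slightly dimmer there. The log2 ratio of 4.68, 5.83, 5.19 and -0.91 had a mean of 3.70 ± 3.11 (SD, n = 4) and did not pass (limma adjusted p = 0.368).

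The probe of Adamts4 spans chr13:87150072-87150596 of rn4 on the plus strand. Adamts4, Timp3 and the Mmp19 probe at position 191 shared an order in which each of replicates 1 to 3 had a ratio of at least 3.90 and replicate 4 one of at most 0.18. Adamts5, the other main aggrecanase, had the reverse. Its normalized log2 intensity was 6.37, 6.86, 6.25 and 14.83 in p75High, against 6.24, 6.47, 6.37 and 7.58 in p75Low, and its log2 ratio was 0.14, 0.39, -0.12 and 7.26 (mean 1.92 ± 3.57, SD, n = 4; limma adjusted p = 0.607).

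Adamts7, an enzyme that cuts cartilage oligomeric matrix protein, had log2 ratios of -0.31, 1.76, 0.93 and -3.77 (mean -0.35 ± 2.43, SD, n = 4). Adamts12, its close relative, averaged 0.37 ± 0.46. Among procollagen N-proteinases, Adamts14 averaged 0.23 ± 0.40 and Adamts3 averaged -0.15 ± 1.01. Adamts13, which cuts von Willebrand factor, averaged -0.64 ± 0.73, the lowest of the family. Adamts8 averaged 0.19 ± 0.25 and Adamts19 -0.14 ± 0.29 by its kept probe, and Adamts15, a further aggrecanase, averaged 0.00 ± 0.48.

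Detection is given by family as counts, with no test between families. All 5 probes of TIMPs and Reck were well above background in all 8 readings (4 arrays with 2 populations each), as were 14 of 26 MMP probes, 7 of 23 ADAM probes and 6 of 17 ADAMTS probes. Together these were 45.1% of member probes, against 38.0% of all probes. At the other end, 12 of the 71 member probes (16.9%) were above background in 0 of 8 readings, as were 14.6% of all probes. They were those of Mmp1a, Mmp8 (neutrophil collagenase), Mmp20 (the enamel protease) and Mmp27, of Adam1a, Adam3, Adam18 and Adam24, which are known from testis and sperm, and of Adamts9, Adamts16, Adamts20 and 1 probe of Adamts19.

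A further 13 probes reached background in 1 to 4 readings and were not kept. Mmp12, the macrophage elastase, was above background on 1 array in each population, with log2 ratios from -0.12 to 0.08. Mmp3, stromelysin, was above on 2 arrays in p75High and 1 in p75Low, with 1.75 on replicate 3 and at most 0.28 elsewhere. Adamts1, an aggrecanase, was above on 2 arrays in p75High and on 0 in p75Low, with ratios of -0.14 to 0.45. The 2 unkept probes of Adam8, an ADAM of leukocytes, differed by up to 5.46, with -5.66 at position 2902 and -0.20 at position 477 on replicate 3. The other 8 of these 13 probes belonged to Adam2, Adam4, Adam5, Adamts6, Adamts17, Mmp1b, Mmp11 and Mmp21. A reading that is not above background sets no level.

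**Figure D4:**
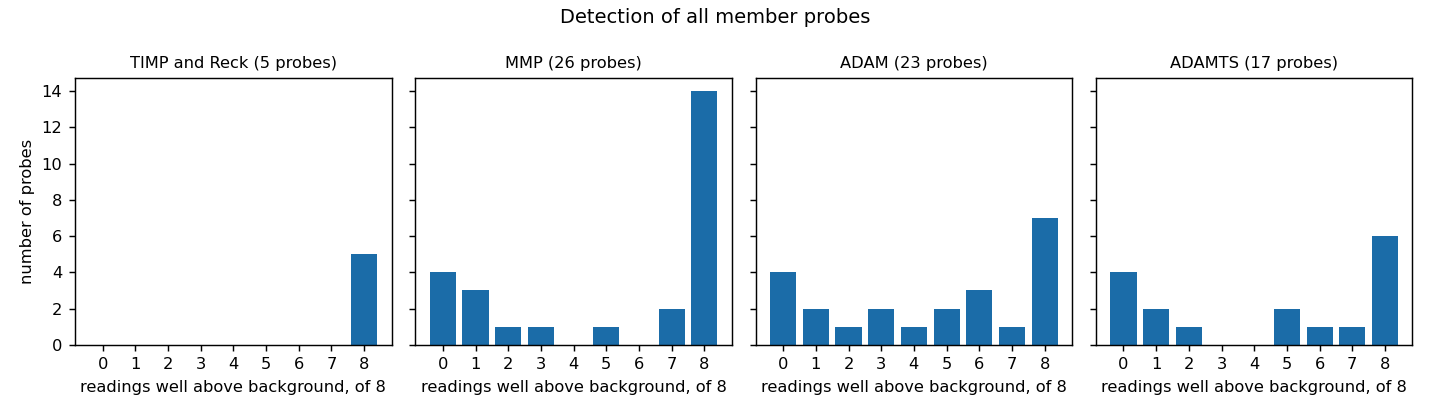
Number of member probes (y axis) by how many of 8 readings were well above background (x axis), 1 panel for each family. The 5 TIMP and Reck probes all stand at 8, and 4 probes of each protease family stand at 0.

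Of 9 genes with 2 probes, 6 had both probes kept. Their probes differed on at least 1 array by up to 6.02 for Mmp19, 4.96 for Adam9, 3.45 for Mmp2, 2.35 for Reck and 2.21 for Adam10, and by at most 0.87 for Mmp16. The sign was shared on all 4 arrays for Adam10, on 3 for Mmp19 and Reck, on 1 for Mmp16 and Mmp2, and on 0 for Adam9, where 1 probe was not above background in p75High on any array. For Adam4, Adam8 and Adamts19 at least 1 probe was not kept, so no agreement is read from those pairs. Whether the probes of a pair read different transcripts was not tested.

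**Figure D5:**
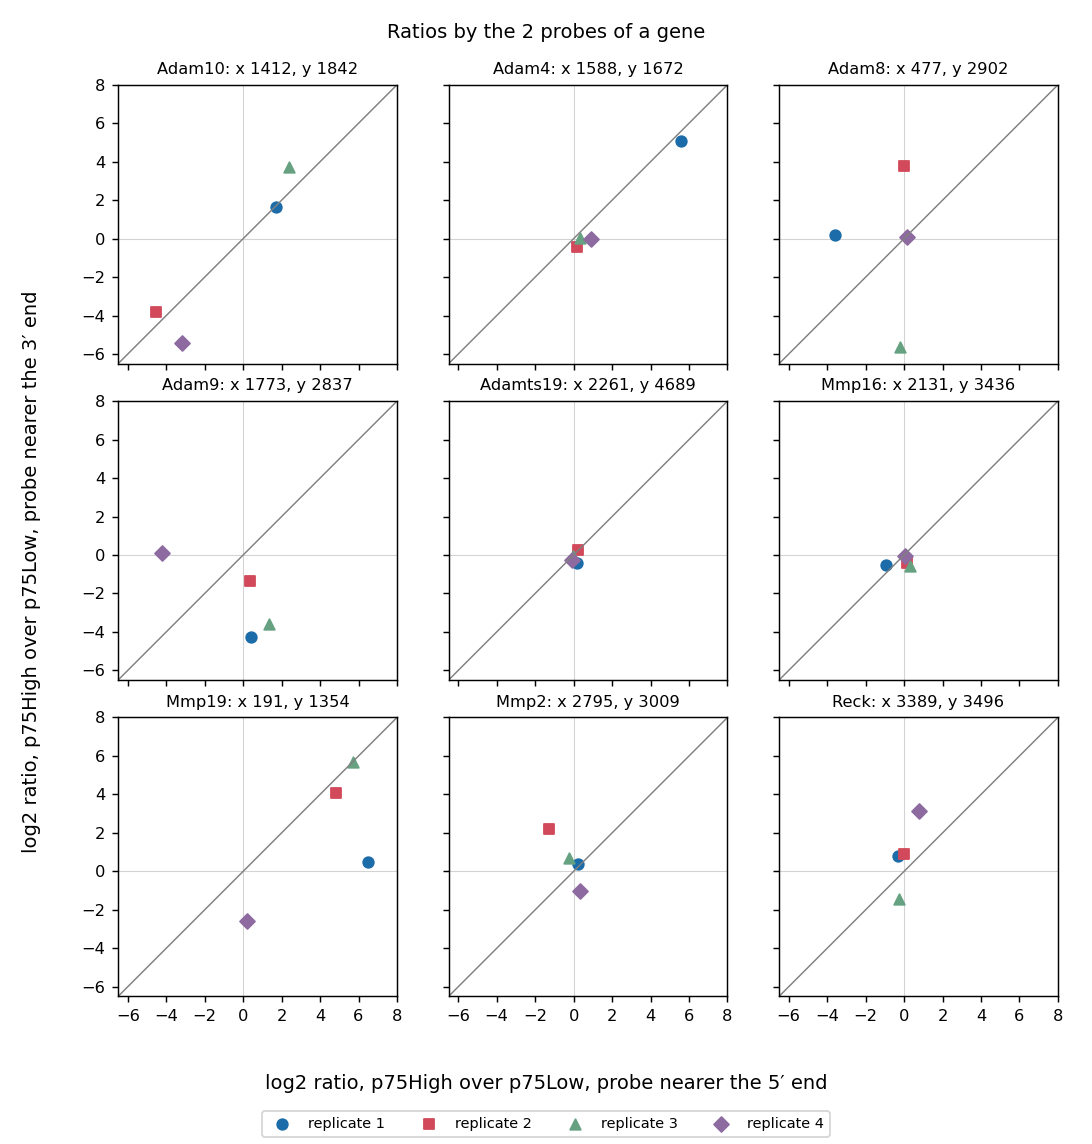
Log2 ratio of p75High over p75Low by the probe nearer the 5′ end (x axis) against that by the probe nearer the 3′ end (y axis) for the 9 genes with 2 probes, each symbol 1 of 4 arrays, and the line marking equal values. The points of Adam10 lie within 2.21 of the line, and the points of Adam9 have opposite signs on the axes. The pairs of Adam4, Adam8 and Adamts19 include probes that were not kept.

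Genes that work with these enzymes were counted from lists. Over all tested probes, 0.655% passed in limma's adjusted test and 12.5% had an unadjusted limma p below 0.05. Of proteins that activate or anchor metalloproteinases, 8 probes were kept and 0 passed in limma's adjusted test, with 2 at an unadjusted p of 0.05 and a median log2 ratio of -0.13. Closest was Plat, the tissue plasminogen activator, with ratios of 4.48, 8.55, 4.15 and 5.27 (mean 5.61 ± 2.01, SD, n = 4; limma adjusted p = 0.111). Next was Tmprss6, a membrane serine protease, at 1.01 ± 0.40 (limma adjusted p = 0.336). Plat was higher in p75High on every array.

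Of the iRhom, FRMD8 and tetraspanin partners that carry ADAM17 and ADAM10 to the surface, 9 probes were kept and 0 passed, also at an unadjusted p of 0.05 in limma, with a median of 0.05. Tspan17 had a probe at 2.62 ± 2.47 (limma adjusted p = 0.407) and another at 0.31, and a probe of Tspan5 averaged -0.52 ± 0.40 (limma adjusted p = 0.531). Of astacins and ADAMTS-like proteins, 11 probes were kept and 0 passed (2 at an unadjusted p of 0.05 in limma), with a median of 0.05. They included Bmp1, the procollagen C-proteinase, at 1.50 ± 0.97 (limma adjusted p = 0.342), and a probe of Pappa, a protease of IGF-binding proteins, at 1.46 ± 1.15 (limma adjusted p = 0.385). The other kept Pappa probe averaged 0.47 (limma adjusted p = 0.543). Of other inhibitors and clearance receptors, 8 probes were kept and 0 passed, also at an unadjusted p of 0.05 in limma, with a median of -0.11. They included Sfrp1, a secreted protein that inhibits ADAM10, at 1.96 ± 2.30 (limma adjusted p = 0.477) and A2m, a trap for proteases, at 0.28 ± 0.17 (limma adjusted p = 0.676).

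The known substrates of the sheddases and of the matrix proteases were counted in the same way. Of 30 kept probes for proteins shed by ADAM10 or ADAM17, 0 passed in limma's adjusted test, with a median log2 ratio of 0.38. At an unadjusted limma p of 0.05, 6 were higher and 2 lower, while 5.75% of all tested probes were higher and 6.78% lower. Cdh2 and Btc among the higher ones were kept through p75High alone, and Il6r among the lower ones through p75Low alone. Such a filter favours the direction each showed. Btc was not well above background on any array in p75Low, nor Il6r on any in p75High. Axl, a receptor tyrosine kinase, had ratios of 2.08, 2.96, 2.05 and 1.97 by 1 probe (mean 2.27 ± 0.46, SD, n = 4; limma adjusted p = 0.094) and a mean of 1.92 by the other. App, the amyloid precursor protein, averaged 3.04 ± 1.63 (limma adjusted p = 0.256).

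Of 25 kept probes for matrix proteins cut by MMP or ADAMTS enzymes, 3 rose in p75High and 0 fell, with a median of 0.89, and 22 did not pass. At an unadjusted limma p of 0.05, 7 were higher and 1 was lower. The shares of all tested probes were 0.261% higher and 0.394% lower past the adjusted threshold, and 5.75% and 6.78% at the unadjusted level. Tnc, tenascin-C, had 7.54 ± 0.38 (limma adjusted p = 0.0262) and Sparc, a collagen-binding protein, 4.03 ± 0.82 (limma adjusted p = 0.0489). Of the 3 probes of Col1a1, the collagen I chain, 1 rose at 3.79 ± 0.58 (limma adjusted p = 0.0363), and the others had means of 2.73 and 3.56 and did not pass. The lower one was a probe of Col1a2, the partner chain of Col1a1, with log2 ratios of -1.40, -2.82, -1.89 and -4.75 (mean -2.71 ± 1.48, SD, n = 4; limma adjusted p = 0.266). The other Col1a2 probe averaged -0.91. Col1a1 is also on the fibroblast marker list, whose 16 kept probes had a mean normalized log2 intensity of 10.73 to 11.11 in p75High and 9.62 to 10.55 in p75Low, and its part in the counts of matrix genes was not tested. The count of 3 was 1 without the filter on dim probes, after median centring or with the scanner's ratios, and 0 without any 1 of the replicates.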

How the data were processed

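The samples were 4 two-colour arrays of sorted rat olfactory ensheathing cells, p75High in Cy5 and p75Low in Cy3. Per the file headers, the deposited intensity values were a spot's mean pixel brightness and its background median in each colour, not normalized. Per the file headers, the deposited log10 ratios came from the scanner software's processed signals (Agilent's Feature Extraction, 10.5.1.1 in the headers and 10.5 in the submitters' processing notes), and the authors' series table held the same ratios. The array design was 014879, and its coordinates were of build rn4, per the file headers. Exons and untranslated regions were not annotated here.

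Background was corrected by normexp with an offset of 50, followed by within-array loess with a span of 0.3, in limma 3.58.1 under R 4.3.3, with control and outlier spots at weight 0. Outlier spots (0.641% of 173516 readings) were left out, 0 were saturated, and repeat spots were averaged. The number of arrays limits the precision. Of 41012 probes, 24941 were kept, and 24872 had at least 2 readings and were tested. The log2 ratio of p75High over p75Low was computed from the deposited intensities and tested against 0 with lmFit and eBayes, two-sided. Levels per population were taken after loess and Aquantile normalization. Fits were checked on simulated data. PCR amplification and the fixed dyes act on every ratio and were not undone.

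Both channels of an array are 1 replicate, as the design text states. Residuals of paired channels correlated at 0.066 to 0.27, and those of other channels at 0.050 at most. Alternatives changed the filter, normalization, background correction, source of the ratio, outlier spots, pairing, probe choice and replicates. Members matched the RefSeq table of GRCr8, used for names alone, by accession (35 probes), symbol (35) or older symbol (1), and the file's names were kept, where Mmp1a is now Mmp1 and Adam3 is Adam3a. Named genes were every inhibitor, every member past the threshold, every MMP kept, the 5 highest and 5 lowest ADAM and ADAMTS genes, and genes whose probes differed by over 2. Of each list the genes past the threshold or the 2 of smallest p were named. Members left out by the filter were named for completeness. The members and lists were chosen with earlier results of these data known.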

Additional observations from a re-analysis of the deposited data

Results flagged for a closer look

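In 5 of 50 sets of 4 array values (46 kept member probes and the medians of the 4 families), 1 array lay farther from the others than Dixon's critical value allows, which chance gives in about 1 of 20 sets. Adamts5 had a log2 ratio of 7.26 on replicate 4, with -0.12 to 0.39 on the other arrays. Adam4 had 5.56 on replicate 1, with 0.17 to 0.89 on the others, and its second, unkept probe read 5.07 on the same array. Mmp28 had 4.06 on replicate 2, with -0.34 to -0.04 on the others. Mmp15 had -2.82 on replicate 1, with 2.15 to 3.11 on the others. Mmp17 had 2.61 on replicate 3, with -0.18 to 0.26 on the others.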

How the results depend on the processing

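The counts past the threshold depended on the settings and on each replicate, and the cause was not tested. Over all probes, 65 were higher and 98 lower in p75High. With dim probes left in there were 26 and 48, 105 higher with the stricter filter, 112 higher and 165 lower with the scanner's ratios, and 163 higher and 168 lower with no replicate block, and 0 in both directions without any 1 replicate, where 2081 to 2652 probes had an unadjusted limma p below 0.05. The 1 lower member, Timp2, became 0 without the filter (adjusted p = 0.0927), after median centring (0.0951), with the scanner's ratios (0.0599), with no replicate block (0.0502) and without any 1 replicate (0 to 0 calls, adjusted p = 0.144 to 0.207), and it stayed 1 with the stricter filter (0.035), no background correction (0.0498), outlier spots kept (0.0455) or the brightest probe per gene (0.0465). The 3 higher matrix genes were 1 without the filter, after median centring and with the scanner's ratios, and 0 without any 1 replicate. The MMP median of 0.18 was 0.31 with the stricter filter or the brightest probe per gene, 0.40 after median centring and 0.35 with the scanner's ratios, and 0.063 to 0.34 when 1 replicate was left out. The ADAMTS median of 0.09 was 0.29 with the scanner's ratios. The median of TIMPs and Reck was 0.66, and 0.091 to 0.86 when 1 replicate was left out, the lowest without replicate 4. Of 537 member values under alternatives, 25 changed sign, all of probes with a ratio of at most 0.97 in size. The estimate for the second Adam9 probe with dim p75High levels raised, tried without each replicate after seeing the data, was 2.88- to 8.15-fold. With 4 arrays and 1 dye order, small differences were not detectable.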

Other observations

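Ratios of the 46 kept members were more alike between some arrays than between others. Across these probes, which share arrays and are not independent, the correlation was 0.65 between replicates 1 and 3, 0.41 between 2 and 3, 0.30 between 2 and 4, 0.28 between 1 and 2, -0.07 between 1 and 4 and -0.13 between 3 and 4. Of the 46, 21 had a ratio of at least 2 in size on some array (45.7%, against 54.3% of all kept probes), and 16 stayed within 1 of 0 on all 4 (34.8%, against 22.5%).

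The RefSeq table added 4 probes of 2 genes that the array file names otherwise. Of these, 3 were kept and none passed in limma's adjusted test or at an unadjusted p of 0.05. A further, kept probe of Adam8 had log2 ratios of 0.45, 0.14, 0.90 and 1.56 (mean 0.76, limma adjusted p = 0.465). Neither probe that carries the Adam8 name was kept, so no agreement or difference with them is read. Adamts2, a procollagen N-proteinase, had means of -0.10 and -0.54 by its 2 probes (limma adjusted p = 0.888 and 0.531).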
